A study of Mus musculus with 41 samples.

Results

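The 8 leukocyte adhesion molecules described here are Sele, Selp, Icam1, Vcam1, Pecam1, Itgam, Itgb2 and Itgax, the genes that carry a white blood cell from the flowing blood across the vessel wall. They were found as the array spots that carry one of these gene names, 8 of 27962 gene names on the array. This gave 15 probes on 42 spots, of 41174 probes and 43379 spots other than controls on each array. The RNA came from lung and liver of adult female C57BL/6 mice (C57BL/6BomTac in the study's methods) that had been time-mated but had not conceived. Exposed mice inhaled nanoTiO2, a surface-coated titanium dioxide particle, at 40 mg per m3 in sessions of 1 h on 11 days. Control mice breathed filtered air on the same schedule, and all tissues were taken 5 days after the last session. There were 7 exposed and 6 control lungs, and 7 exposed and 8 control livers. Going by the numbers in the sample titles, 12 of these mice gave both a lung and a liver. Each of the 28 arrays compared 1 mouse, labelled with Cy5, with a universal reference RNA from 11 mouse cell lines, labelled with Cy3. Every value below is therefore a log2 ratio of tissue over reference for 1 probe, and values of different probes cannot be set against each other as levels.

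Leukocytes leave the blood in steps. Selectins on activated endothelium (E-selectin from Sele, P-selectin from Selp) catch sugars on the passing cell and make it roll. Integrins on the leukocyte then hold it to immunoglobulin-like ligands on the endothelium, and junction proteins such as PECAM1 guide it through. In the lung much of this traffic runs through the capillaries, where some steps can differ from those in other vessels, and in the liver it runs through the sinusoids.

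Several of the genes had more than 1 probe, and these probes did not all report alike, so the probes are shown before their values. The sequences are those printed in the array files, 5′ to 3′. The coordinates are also the files' own, and their genome build is not given in the sources used here. Of the 15 probes, 10 were designed on a RefSeq mRNA, 4 on a RIKEN cDNA clone and 1 on another cDNA clone. Probes are numbered by mean signal, brightest first, and probe 1 of each gene is its main probe.

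The 2 probes of Icam1 lie 836 bases apart, probe 2 upstream at chr9:20904404-20904463 and probe 1 downstream at chr9:20905300-20905359, on the plus strand. Only the last 30 bases of probe 1 are printed, with the hexamer AATAAA, the textbook polyadenylation signal, in capitals. Searched on the probe's own strand, AATAAA was in 1967 of 41174 probes (4.78%) and in 2 of these 15.
Icam1 probe 2: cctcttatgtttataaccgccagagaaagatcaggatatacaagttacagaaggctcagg
Icam1 probe 1, last 30 bases: agaaacctttcctttgaatcAATAAAgttt

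Pecam1 probe 1 is a 60-base sequence that covers 1854 bases of the genome, chr11:106790116-106791969 on the minus strand, so it joins separate exons. Probe 2, at chr11:106790785-106790844, lies inside that span, in sequence that probe 1 skips. It was designed on a RIKEN clone that the array file describes as a different gene product, a metalloprotease, while still naming the gene Pecam1. The first 30 bases of probe 2 are shown beside all of probe 1.
Pecam1 probe 1: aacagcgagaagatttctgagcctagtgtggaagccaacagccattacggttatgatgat
Pecam1 probe 2, first 30 bases: taattagttcttacatcaaaccattctgaa

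Vcam1 probe 2, at chr3:115900948-115901007 on the minus strand, was designed on the RefSeq mRNA, as was probe 1 at chr3:115885211-115885270. Probe 3, from a RIKEN clone, lies between them at chr3:115891967-115892026, 6696 bases from probe 1 and 8921 bases from probe 2. It holds the other AATAAA among these probes, in capitals in the 30 bases shown.
Vcam1 probe 2: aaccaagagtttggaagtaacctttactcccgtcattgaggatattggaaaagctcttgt
Vcam1 probe 3, 30 bases: actagtgattacAATAAAccattctccata

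Selp probe 2, at chr1:164104808-164104867 on the plus strand, lies 8042 bases upstream of probe 1, and both were designed on the same RefSeq mRNA. It is shown because its readings differed from those of probe 1 in the number of arrays above background.
Selp probe 2: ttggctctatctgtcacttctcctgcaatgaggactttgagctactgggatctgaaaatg

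How far a probe could be read differed between the genes. The scanner software calls a spot well above background or not. Sele was not well above background on any of the 28 arrays, in either dye, so its mRNA could not be followed here. Vcam1 probe 3 and Pecam1 probe 2 were also not well above background in Cy5 on any array. The main probes of Selp, Icam1, Vcam1, Pecam1, Itgb2 and Itgax were above it on all 28. Itgam probe 1, for the alpha chain CD11b of neutrophils and macrophages, was above it on all 13 lung arrays but on 1 of 15 liver arrays. Over all probes, 61.3% to 67.5% were well above background on a lung array and 55.1% to 70.5% on a liver array.

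**Figure D1:**
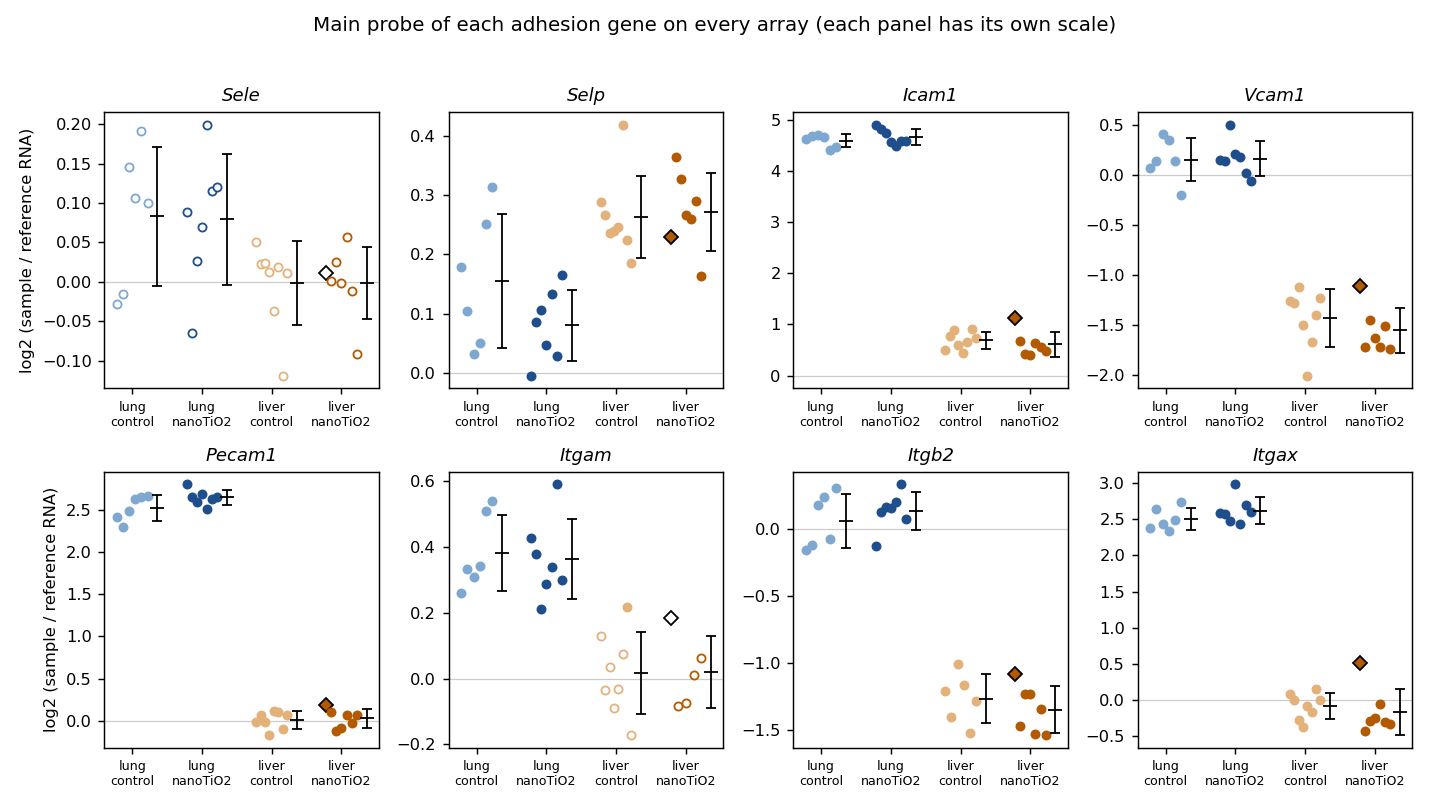
Log2 ratio of sample over reference RNA for the main probe of each of the 8 genes, with 1 point per mouse in 4 groups, filled where the spot was well above background in Cy5 and open where it was not; bars are mean ± SD beside each group, and the diamond is the liver of exposed mouse 13. Lung and liver separate for Icam1, Vcam1, Pecam1, Itgb2 and Itgax, while exposed and control points overlap in every panel.

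The largest pattern in these genes was the tissue. In control mice 6 of the 8 genes were higher in lung than in liver and none was lower (limma, Benjamini-Hochberg adjusted p under 0.05), where 29.3% of all 41149 probes tested were higher in lung and 28.5% lower. Lung and liver arrays were run on different slides and read with different versions of the scanner software, so tissue and array run cannot be told apart. In these bulk tissues, more cells of a type and more RNA per cell cannot be told apart either.

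Icam1, the ligand of the leukocyte beta 2 integrins, had the largest tissue difference of the 8. Its main probe lay between 4.41 and 4.70 in the 6 control lungs, with a median of 4.64, and between 0.45 and 0.91 in the 8 control livers, with a median of 0.69. The lungs were thus all above all the livers. The difference was 3.90 ± 0.08 (log2, SE), a 15-fold higher ratio (95% interval 13.4 to 16.8, adjusted p = 6.1e-17). Probe 2, whose sequence is upstream, gave 2.44 ± 0.09 (adjusted p = 1e-13).

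Vcam1, the ligand of alpha 4 integrins, was also higher in lung, by 1.58 ± 0.13 on the log2 scale, or 2.99-fold (95% interval 2.49 to 3.60, adjusted p = 6.6e-09). Its main probe ran from -0.20 to 0.41 in control lungs and from -2.00 to -1.12 in control livers, without overlap. Probe 2 gave 0.98 ± 0.09 (adjusted p = 5.3e-08). Probe 3, from the RIKEN clone, gave 0.02 ± 0.04 (adjusted p = 0.76) and was below background in both tissues.

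Pecam1, the junction protein CD31 of endothelium, platelets and leukocytes, was 5.74-fold higher in control lung (95% interval 5.2 to 6.32, adjusted p = 2.4e-15). The control lungs ran from 2.30 to 2.66 and the control livers from -0.17 to 0.12. Pecam1 probe 2, which lies in the sequence that probe 1 skips, gave 0.11 ± 0.04 (adjusted p = 0.032) from readings that were all below background.

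The leukocyte integrins followed. Itgax, the alpha chain CD11c of dendritic cells and alveolar macrophages, was 6.00-fold higher in control lung (95% interval 5.30 to 6.80, adjusted p = 4.4e-14). The control lungs ran from 2.34 to 2.74 and the control livers from -0.37 to 0.15. Itgax probe 2, a RIKEN clone probe 16640 bases upstream, gave -0.01 ± 0.06 (adjusted p = 0.93) and was above background on 5 of the 6 control lungs and 4 of the 8 control livers. Itgb2, the beta 2 chain CD18 that pairs with both alpha chains, was 2.52-fold higher in control lung (95% interval 2.17 to 2.92, adjusted p = 1.5e-08). It was measured in 6 of the 8 control livers, because 2 of its spots there were marked as outliers by the software. Itgam was 1.29-fold higher (95% interval 1.17 to 1.42, adjusted p = 9.3e-05), against a liver reading that was above background in only 1 control mouse and a reference dye that was above it on none of the 13 lung arrays, so the size of this fold is uncertain.

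The selectins did not share this pattern. Selp was 0.11 ± 0.05 lower in control lung on the log2 scale (adjusted p = 0.089), with lungs from 0.03 to 0.31 and livers from 0.19 to 0.42. Selp probe 2 gave -0.19 ± 0.09 (adjusted p = 0.088), was above background in no lung, and was above it in 5 of the 8 control livers. Sele differed by 0.09 ± 0.04 (adjusted p = 0.12) below background. Without background correction Sele and Selp passed the threshold (differences 0.16 and -0.13, adjusted p = 0.0021 and 0.046), as they did in the authors' own log2 table (0.16 and -0.18, adjusted p = 0.0019 and 0.0076).

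The tissues were also set side by side inside single mice. For Icam1, Vcam1, Pecam1 and Itgax the lung was above the liver of the same animal in 6 of 6 exposed and 6 of 6 control mice with both tissues. Every lung lay above every liver for these genes, so any pairing of lungs with livers would have given these counts. The difference within a mouse ran from 3.47 to 4.26 for Icam1 in exposed mice and from 3.70 to 4.18 in control mice. For Itgb2 it ran from 1.40 to 1.71 in 6 exposed mice and from 1.14 to 1.71 in the 4 control mice measured. No such values are given for Itgam, which was below background in every exposed liver. Selp was lower in the lung than in the liver of 6 of 6 exposed and 5 of 6 control mice.

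**Figure D2:**
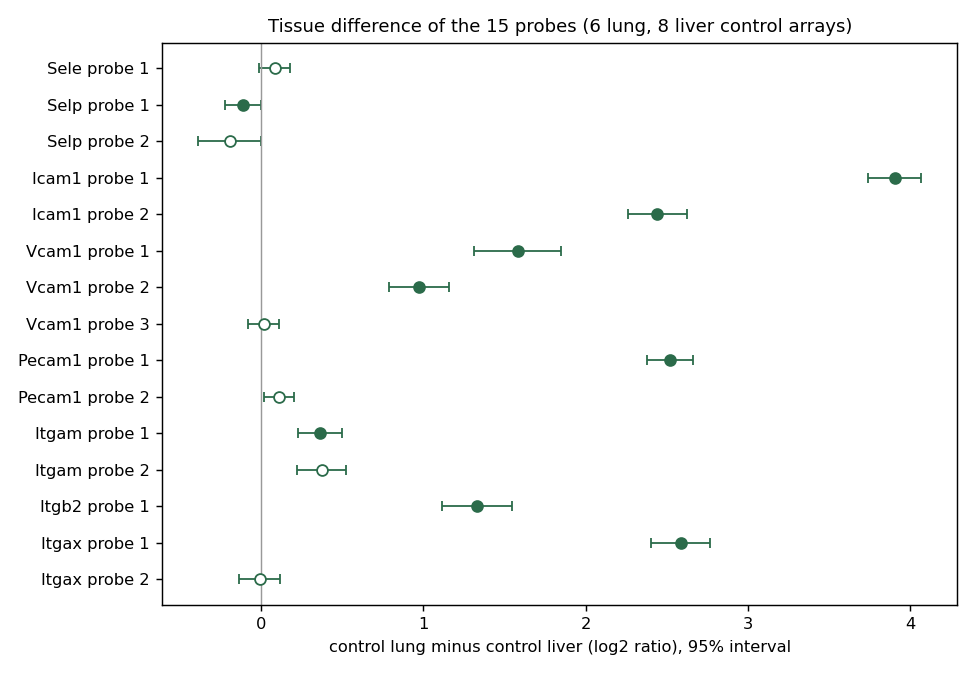
Control lung minus control liver for each of the 15 probes (log2 ratio, limma estimate with 95% interval, 6 lung and 8 liver arrays); filled points were well above background in Cy5 on all 6 control lungs. The main probes of Icam1, Itgax and Pecam1 lie farthest right, at 3.90, 2.59 and 2.52, while Vcam1 probe 3 and Itgax probe 2 lie at 0.02 and -0.01.

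One liver stood apart in these genes. The liver of exposed mouse 13 had the highest ratio of all 15 livers for Icam1, Vcam1, Pecam1 and Itgax. It read 1.12 for Icam1, where the other 14 livers ran from 0.40 to 0.91, and 0.52 for Itgax, where they ran from -0.43 to 0.15. For Vcam1 it read -1.11 against -1.12 in the next liver. No other liver was highest for more than 1 of the 8 genes. Hepatocyte markers had their lowest mean of the 15 livers there, 5.02 against 5.15 to 5.72 in the others. Dendritic cell markers had their highest, 0.67 against 0.11 to 0.53. Counted from the highest of the 15 livers, it ranked 2 for macrophage and monocyte markers and for pan-leukocyte markers. It ranked 3 for endothelial markers, 5 for neutrophil markers and 10 for lymphocyte markers. The part of these cells in these readings was not tested. Liver results are therefore also given without this mouse.

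Whether inhaled nanoTiO2 left a change in adhesion gene expression was asked by comparing exposed with control lungs. None of the 8 genes, and none of the 15 probes, passed the adjusted threshold in lung, where 83 of 41155 probes did (0.202%; 74 higher and 9 lower). Exposed and control lungs overlapped for every one of the 15 probes, while they did not overlap for 0.39% of the probes measured on all 13 lungs. The main probes differed by -0.07 to 0.13 on the log2 scale, with a median of 0.04 against 0.002 over the main probes of all gene names. Exposed samples were always at positions 1 and 2 of a slide and control samples at 3 and 4, and an effect of the position on the slide cannot be told apart from one of exposure. In the reference channel of the same arrays, where both groups hold the same RNA, 4 of 41155 probes passed and none of the 8 main probes did. Differences of the main probes there, on log2 Cy3 intensity, ran from -0.08 ± 0.08 (Vcam1, limma, unadjusted p = 0.3) to 0.12 ± 0.08 (Pecam1, unadjusted p = 0.16). They are intensities of 1 dye, normalized otherwise than the ratios. Their part in the lung differences was not tested.

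**Figure D3:**
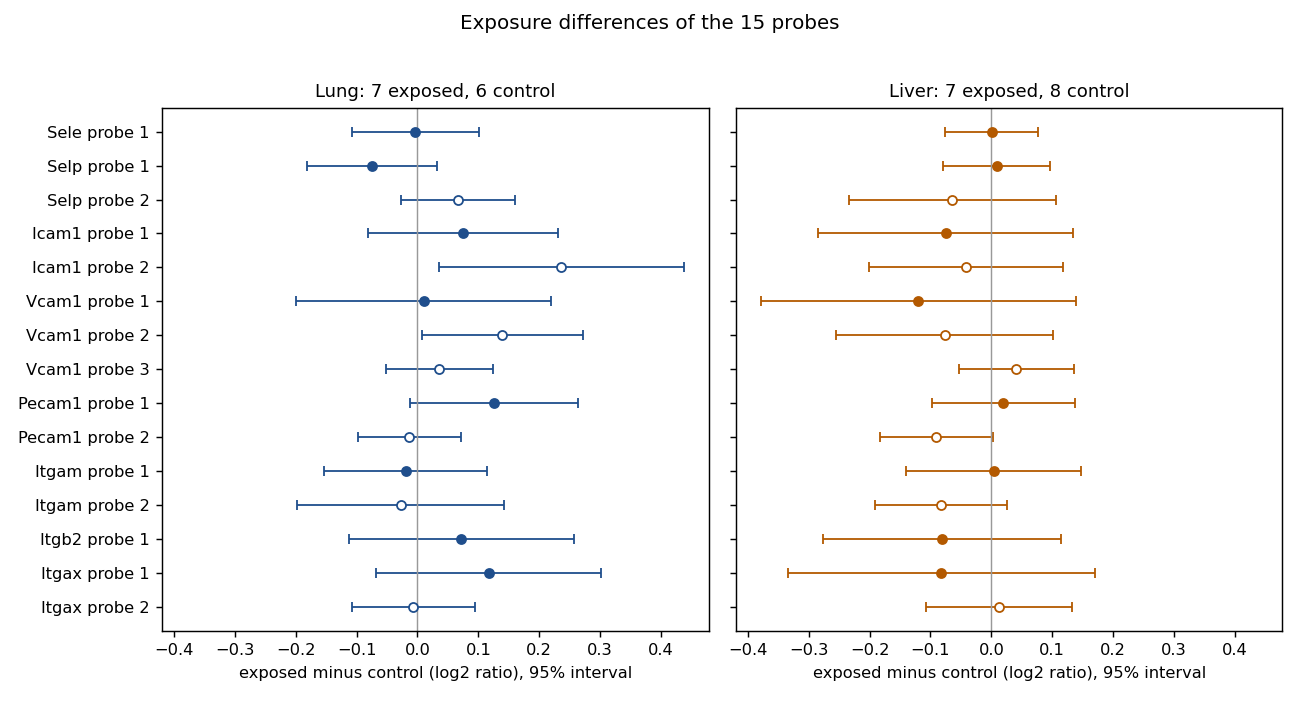
Exposed minus control difference (log2 ratio) of the 15 probes in lung (left, 7 against 6) and liver (right, 7 against 8), with 95% intervals from limma; filled points are main probes and open points the other probes. In lung the intervals of Icam1 probe 2 (0.04 to 0.44) and Vcam1 probe 2 (0.01 to 0.27) lie above 0 before adjustment, and no probe passed after it.

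P-selectin, which endothelium and platelets store and release on activation, had the lowest exposed minus control difference of the 8 in lung. Selp probe 1 ran from -0.005 to 0.17 in the 7 exposed lungs, with a median of 0.09, and from 0.03 to 0.31 in the 6 controls, with a median of 0.14. Of the exposed lungs 2 lay below every control and none above. The difference was -0.07 ± 0.05 (exact permutation p = 0.154), so the 95% interval of the fold change reached from 0.88 to 1.02. Probe 2 gave 0.07 ± 0.04 in the other direction, below background. Sele, below background, gave -0.004 ± 0.05.

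Icam1 is an inducible ligand that many cells raise in inflammation. Its main probe ran from 4.48 to 4.90 in exposed lungs, with a median of 4.59, and from 4.41 to 4.70 in controls, with a median of 4.64. Of the exposed lungs 3 lay above every control. The groups differed by 0.07 ± 0.07 (exact permutation p = 0.362), or 1.05-fold with a 95% interval of 0.94 to 1.17. The upstream probe 2 gave a larger difference, 0.24 ± 0.09, with all 7 exposed lungs above the control mean (2.57 to 3.07 against 2.25 to 2.84). Its exact permutation p was 0.0431 before adjustment, and limma's adjusted p was 0.64. Within the 3 slides that held both groups, the main probe was higher in exposed lungs by 0.05 to 0.20.

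Vcam1 showed the same division between its probes. The main probe ran from -0.06 to 0.50 in exposed lungs, with a median of 0.15, and from -0.20 to 0.41 in controls, with a median of 0.14, a difference of 0.01 ± 0.10. Its 95% interval in fold was 0.87 to 1.16. Within the 3 slides that held both groups it was higher in exposed lungs by 0.0066 to 0.1242. Probe 2 was higher by 0.14 ± 0.06 in 7 exposed and 5 control lungs (exact permutation p = 0.0455, adjusted p = 0.69). Probe 3 gave 0.04 ± 0.04.

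Pecam1 had the largest main-probe difference in lung, 0.13 ± 0.06 (exact permutation p = 0.0851, adjusted p = 0.72). The exposed lungs ran from 2.51 to 2.81 with a median of 2.66, and the controls from 2.30 to 2.66 with a median of 2.56. Of the exposed lungs 6 lay above the control mean and 2 above every control. The fold was 1.09 with an interval of 0.99 to 1.20. By slide the difference was 0.38, 0.04 and -0.01, so most of it lay on 1 of the 3 slides.

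Among the leukocyte integrins, Itgax differed by 0.12 ± 0.09 in lung (exact permutation p = 0.255), with exposed lungs from 2.43 to 2.99 around a median of 2.58 and controls from 2.34 to 2.74 around 2.47. Its fold was 1.08 with an interval of 0.95 to 1.23, the highest upper bound among the 8 main probes. Within the 3 slides that held both groups it was higher in exposed lungs by 0.0358 to 0.0911. For other genes the sign turned between these slides: Itgb2 (-0.04 to 0.14), Itgam (-0.11 to 0.11), Selp (-0.18 to 0.07) and Sele (-0.10 to 0.03). Each such slide value rests on 1 or 2 exposed and 2 control lungs. Itgb2 ran from -0.12 to 0.34 in exposed lungs and from -0.16 to 0.31 in controls, a difference of 0.07 ± 0.09. Itgam ran from 0.21 to 0.59 and from 0.26 to 0.54, a difference of -0.02 ± 0.06, or 0.99-fold with an interval of 0.90 to 1.08. Its reference dye was above background on none of the lung arrays, so this fold and its interval are uncertain. The other probes of Itgam and Itgax gave -0.03 ± 0.08 and -0.01 ± 0.05. Over the main probes of the 7 genes other than Sele, the upper ends of these intervals lay between 1.02 and 1.23. Icam1 probe 2, above background on every array, had an unadjusted interval in fold of 1.025 to 1.354.

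In liver none of the 15 probes passed the threshold, and no probe of 41143 did (0%). By limma the unadjusted p was under 0.05 for 1040 probes in all and for none of the 15. Pecam1 probe 2, below background, came nearest at -0.09 ± 0.04 (exact permutation p = 0.0362, limma's adjusted p = 1). Exposed and control livers overlapped for all 15, against a share of 0.0234% without overlap among the probes measured on all 15 livers. The main probes differed by -0.12 to 0.02, with a median of -0.04. Vcam1 gave -0.12 ± 0.12, Itgax -0.08 ± 0.12, Itgb2 -0.08 ± 0.09 and Icam1 -0.08 ± 0.10. Itgam rested on 5 exposed and 8 control livers and gave 0.004 ± 0.07, below background. Itgb2 rested on 7 exposed and 6 control livers.

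The liver of mouse 13 moved several of these values. Without it Icam1 was -0.16 ± 0.08, Itgax -0.20 ± 0.08, Vcam1 -0.19 ± 0.11 and Itgb2 -0.13 ± 0.09, each with an adjusted p of 1. For Icam1, 2 exposed livers lay below every control and mouse 13 alone above them. Pecam1 turned from 0.02 to -0.006.

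The exposure difference in lung did not differ from that in liver for any of the 8 main probes by limma's interaction term, which 58 of 41125 probes passed (0.141%). The gap was 0.20 ± 0.16 for Itgax, 0.15 ± 0.13 for both Icam1 and Itgb2, and 0.13 ± 0.17 for Vcam1, with the lung higher. Each 95% interval held 0, and that of Itgax reached 0.52. Of the other probes, Icam1 probe 2 gave 0.28 ± 0.12 (limma, unadjusted p = 0.033, adjusted p = 1).

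The other genes of leukocyte adhesion were read from lists by role. Of 14 genes for selectins, their ligands and the enzymes that build the ligand sugars, all 14 were on the array and none passed in lung or liver. Their lung median was 0.08, with 11 of 14 above 0, where 51.3% of the main probes of all gene names were. The unadjusted limma p was under 0.05 for 2 of the 14. The highest were St3gal4, a sialyltransferase, at 0.24 ± 0.07 (adjusted p = 0.41) and Fut4, a fucosyltransferase, at 0.20 ± 0.05 (adjusted p = 0.18). The lowest was Glg1, a Golgi glycoprotein that binds E-selectin, at -0.23 ± 0.14.

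Of the leukocyte integrins 11 of 12 listed genes were on the array, and 1 passed in lung. This was Itgae, the alpha chain CD103 of intraepithelial lymphocytes and a subset of dendritic cells. Itgae probe 1 ran from 1.93 to 2.29 in exposed lungs and from 1.03 to 1.66 in controls, so that all 7 exposed lungs lay above all 6 controls. Itgae probe 1 was 1.58-fold higher, 0.66 ± 0.09 on the log2 scale (95% interval 0.47 to 0.85, adjusted p = 0.0032). In liver it gave -0.04 ± 0.07, and the gap between the tissues was 0.70 ± 0.12 (adjusted p = 0.0042). Itgae probe 2 gave 0.24 ± 0.08 in lung (adjusted p = 0.53). With the arrays centred on their medians in place of loess, the first probe's lung difference was 0.69 with an adjusted p of 1, and with normexp fitted on all spots it was 0.11 (adjusted p = 0.91). Itgb7, the beta chain that pairs with it, gave 0.03 ± 0.08. Itga5, a fibronectin receptor chain, was the next highest at 0.08 ± 0.06. The lowest were Itgal, the alpha chain CD11a that also pairs with CD18, at -0.21 ± 0.09 (adjusted p = 0.69) and Itga6 at -0.18 ± 0.08 (adjusted p = 0.7).

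Of the genes that switch integrins to their binding form, 11 of 12 were on the array and none passed. Their lung median was 0.01. The highest were Cyth1 (named Pscd1 on the array) at 0.10 ± 0.09 and Rassf5 at 0.09 ± 0.08. The lowest were Rasgrp2, the exchange factor for Rap1, at -0.16 ± 0.09 and Rap1a itself at -0.15 ± 0.06 (adjusted p = 0.65).

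Of 15 endothelial ligands and junction proteins none passed, with a lung median of 0.01. Aoc3, the vascular adhesion amine oxidase, had the highest difference, at 0.31 ± 0.30. F11r, a junctional adhesion molecule, followed at 0.12 ± 0.11. Cd99l2 had the lowest, at -0.21 ± 0.08 (adjusted p = 0.62), and Icam2, a constitutive endothelial ligand, gave -0.10 ± 0.06. Between the control tissues, 14 of 15 endothelial ligands were higher in lung and 1 lower, and 11 of 14 selectin pathway genes were higher and 2 lower. Of the leukocyte integrins 9 of 11 were higher and none lower, and of the activation genes 8 of 11 were higher and 2 lower. These counts are of main probes, while over all probes 29.3% were higher and 28.5% lower.

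**Figure D4:**
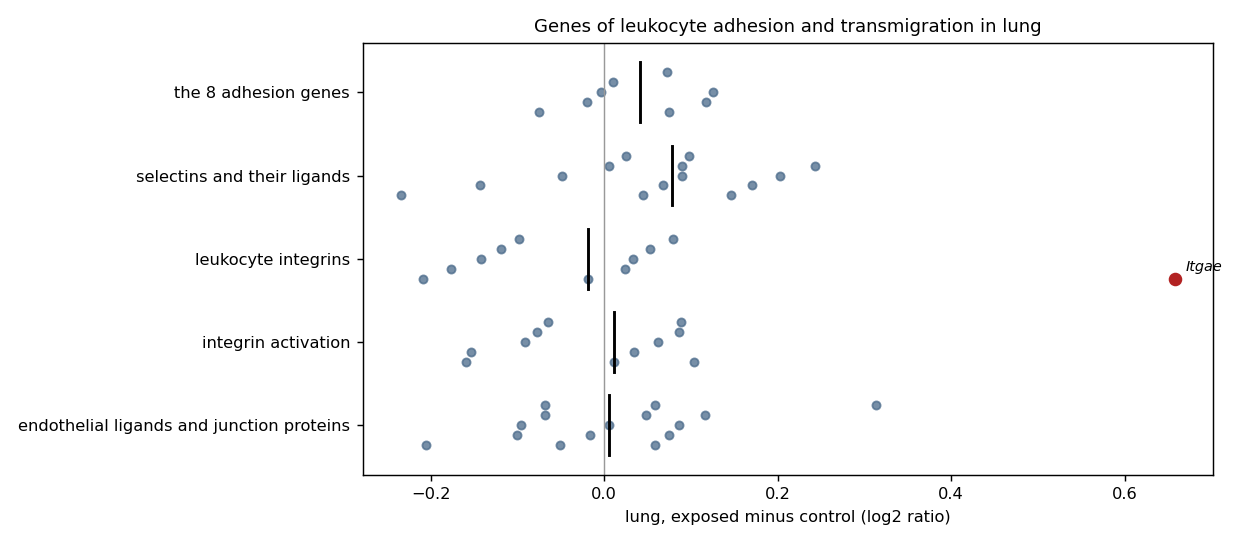
Lung difference, exposed minus control (log2 ratio), of the main probe of each gene, by list; 1 point is 1 gene, the black bar is the list's median, and red marks an adjusted p under 0.05. Itgae at 0.66 is the only red point, and the points of the 8 genes lie between -0.07 and 0.13.

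Markers of the cells that carry or meet these molecules were read from the same arrays, as values beside the results, and their part in them was not tested. For the counts above or below 0, 51.3% of the main probes of all gene names were above 0 in lung. Of 11 endothelial markers none passed, 10 were below 0, and the median was -0.07, from Kdr at -0.16 ± 0.11 to Tek at 0.06 ± 0.09. Their mean over the list ran from 3.82 to 4.33 in exposed and from 3.98 to 4.29 in control lungs. Of 11 neutrophil markers none passed, with a median of -0.23, from S100a8 at -0.88 ± 0.42 to Ltf at 0.57 ± 0.47. Their mean ran from 0.99 to 1.92 in exposed and from 1.17 to 1.89 in control lungs. The study reported a higher percentage of neutrophils among the cells in lavage fluid from its exposed mice. That is a count of washed-out cells, while these values are RNA of lung tissue, and how they relate was not tested.

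Of 12 macrophage and monocyte markers 8 were above 0, with a median of 0.07, and 5 had an unadjusted limma p under 0.05. Their mean ran from 1.665 to 2 in exposed and from 1.562 to 1.878 in control lungs. After adjustment 1 passed as higher and 1 as lower. Marco, a scavenger receptor of macrophages, rose by 0.57 ± 0.09 (1.48-fold, adjusted p = 0.0092). Siglecf, a lectin of alveolar macrophages and eosinophils, fell by 0.70 ± 0.11 (adjusted p = 0.011). All 7 exposed lungs lay above all controls for Marco and below all controls for Siglecf. Among 7 dendritic cell markers, Cd83, a maturation marker, rose by 0.52 ± 0.06 (adjusted p = 0.0015), and Xcr1 had the lowest value, -0.08 ± 0.04. With the arrays centred on their medians none of these 3 passed (differences 0.63, -0.62 and 0.59). Marco also missed the threshold in the 3 slides that held both groups (0.55, adjusted p = 0.071). The scanner software's processed signals gave 0.28, -1.003 and 0.33, with none past the threshold. With normexp fitted on all spots Cd83 gave -0.24. Over all 23 alternative runs Marco ran from 0.16 to 0.64 and missed the threshold in 4. Siglecf ran from -1.06 to -0.62 and missed it in 3.

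Of 11 lymphocyte markers none passed, from Ms4a1 at -0.18 ± 0.22 to Lck at 0.11 ± 0.09. The 6 pan-leukocyte markers ran from Laptm5 at -0.19 ± 0.08 to Lcp1 at 0.18 ± 0.07, and none passed. The 6 platelet markers had a median of -0.23, from Ppbp (Cxcl7 on the array) at -0.56 ± 0.16 to Pf4 (Cxcl4) at 0.07 ± 0.11, and none passed. Their mean ran from 0.62 to 0.99 in exposed and from 0.758 to 1.497 in control lungs. Of 6 lung epithelial markers Foxj1, of ciliated cells, passed at 0.30 ± 0.05 (adjusted p = 0.037), but missed the threshold when any 1 of 10 of the 13 arrays was left out (adjusted p up to 0.11), in the authors' table (0.23, adjusted p = 0.32), with processed signals (0.14, adjusted p = 0.83), with median centring (0.31, adjusted p = 1) and with the slide as a fixed block (0.28, adjusted p = 0.12). Sftpc, a surfactant protein of alveolar type II cells, had the lowest value, -0.20 ± 0.07.

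Markers of liver and heart muscle were also read in the lungs, and where their signal came from was not tested. Ttr was above background in 1 of the 7 exposed lungs and in no control lung. All 5 hepatocyte markers on the array were above 0 in exposed lung, from Ttr at 0.03 ± 0.06 to Cyp2e1 at 1.104 ± 0.48 (adjusted p = 0.69). Their mean ran from 0.67 to 2.09 in exposed and from 0.45 to 1.20 in control lungs. In the livers it ran from 5.02 to 5.72. All 6 heart muscle markers were above 0 too, from Myl7 at 0.23 ± 0.37 to Tnnt2 at 0.64 ± 0.41. The labelled tissues held their own markers: all 6 lung epithelial markers were higher in control lung, and all 5 hepatocyte markers were higher in control liver.

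**Figure D5:**
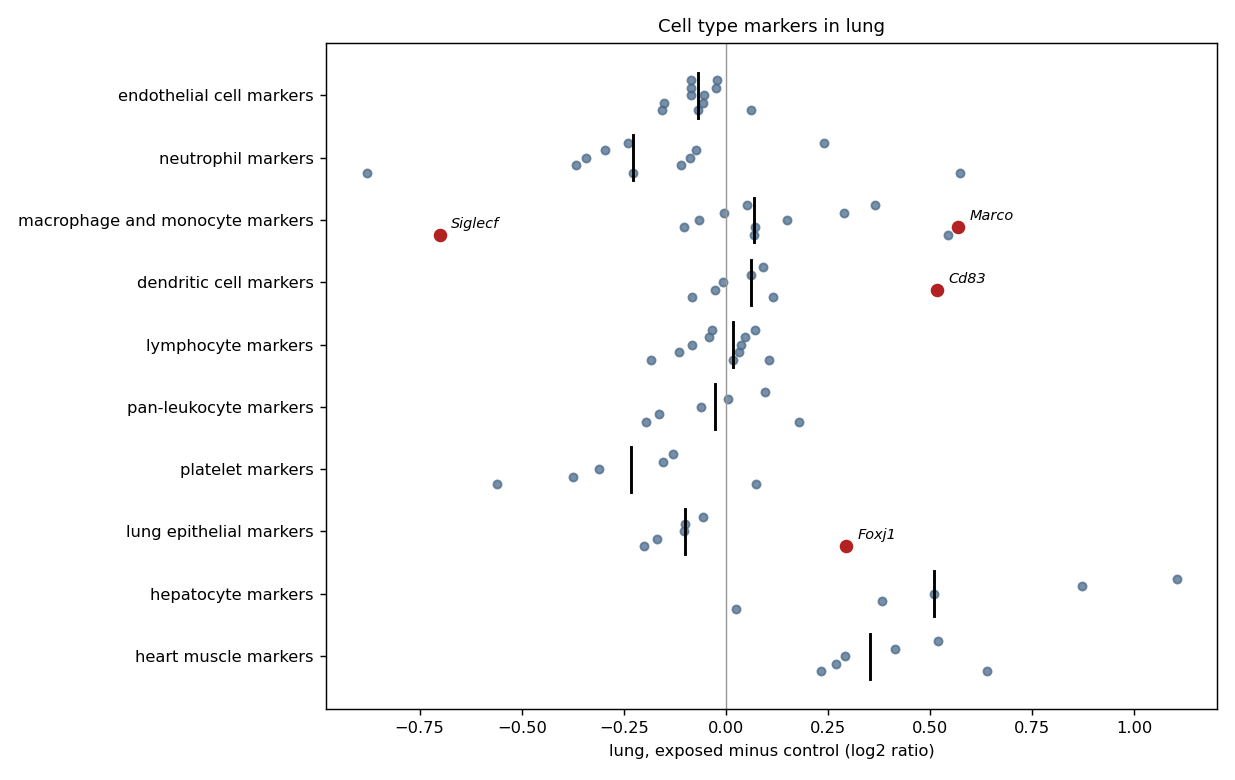
Lung difference, exposed minus control (log2 ratio), of the main probe of each marker gene, by cell type; 1 point is 1 gene, the black bar is the list's median, and red marks an adjusted p under 0.05. Marco, Cd83 and Foxj1 lie to the right and Siglecf to the left, and the neutrophil and platelet medians lie at -0.23.

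Over the 13 lung arrays, the genes whose main probe ran most like each of the 8 were described by Pearson's r, among 12160 other main probes well above background throughout. These points share slides and the same reference RNA, and the values are descriptions. Each r is the highest found among that many probes over only 13 arrays, and Sele reached 0.869 though below background. Whether any pair ran together beyond this selection was not tested. Pecam1 ran most like Cgn (r = 0.919) and Tsnax (r = 0.919), Icam1 like Aldh18a1 (r = 0.894) and Titf1 (r = 0.877), and Vcam1 like Pdia6 (r = 0.895) and Cd44 (r = 0.895). Itgam ran most like Cope (r = 0.918) and Chn2 (r = 0.865), Itgax like Atad2 (r = 0.875) and Mgl2 (r = 0.871), and Itgb2 like 2810441K11Rik (r = 0.913) and a transcript named only by its Ensembl identifier (r = 0.881). Selp ran most like A430071A18Rik (r = 0.855) and 6820429M01 (r = 0.847), and Sele, below background, like 3110005G23Rik (r = 0.869) and Rab17 (r = 0.846). Among the 8 genes themselves r ran from -0.686, between Selp and Icam1, to 0.394, between Icam1 and Vcam1.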

How the data were processed

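Gene expression was measured on 2-colour Agilent arrays, with sample RNA in Cy5 and the common reference in Cy3 on every array. The scanner files hold spot intensities that the authors deposited as exported by Agilent Feature Extraction, version 9.5.3.1 for lung and 10.1.1.1 for liver. The log2 ratios the authors deposited were LOWESS-normalized and ran with the uncorrected intensities (r = 0.994 to 0.9978, slope 0.99 to 1). Their centring is not stated. Each array's median lay between -0.042 and -0.022. Arrays clustering apart had been left out by the study.

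Outlier-marked spots (2.46% to 4.72% per array) were left out. Median intensities were background-corrected (normexp, offset 50), loess-normalized and averaged by probe, and tested with limma 3.58.1 in R 4.3.3, with Benjamini-Hochberg adjustment over all probes and a threshold of 0.05. The offset draws ratios of dim probes towards 0. With marked spots kept, the fitted Cy5 background mean reached -972, against -8.44 to -4.12 without them. Liver files carry no gene names, so names were taken from the lung files through spot and probe numbers. A gene's main probe had the highest mean signal. Exact permutation tests were 2-sided, over arrays. No interval covers more than the spread between mice, and the number of arrays limits precision.

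Listed genes were matched by symbol or older name. The text names the 8 genes with all probes, listed adhesion genes that passed, the 2 highest and 2 lowest lung differences of each adhesion list, the highest and lowest of each marker list, and the 2 most similar genes for each. One gene that this rule names is not reported here. Itgb7 was named after its value was seen. These genes and lists were chosen with earlier results of these data known. Fits were tested on simulated data. Same numbers in the lung and liver mRNA titles were taken to mark the same animal, since the study reports liver mRNA from the same mice. The titles do not state it, and some numbers of exposed mice here are control numbers in the miRNA titles. Deviations of the 12 shared numbers correlated from -0.075 to 0.215. The alternatives concerned background, normalization, signals, dim probes, slides, probe averaging, pairing and single arrays. The series' miRNA arrays were not used here.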

Additional observations from a re-analysis of the deposited data

Results flagged for a closer look

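Of 32 member-by-group sets of arrays tested for 1 far value, 3 held one, where about 1 in 20 would by chance. In the exposed livers mouse 13 lay far above the rest for Icam1 (1.1189, next 0.6713) and for Itgax (0.5198, next -0.0547). In the control livers mouse 26 lay far above the rest for Selp (0.4189, next 0.2881).

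The lung and liver effects of exposure differed by the interaction test for Itgae, by 0.7016 with the lung higher, and for Siglecf, by -0.7459 with the lung lower. The Itgae gap missed the threshold with normexp fitted on all spots (0.059, adjusted p = 0.95) and with median centring (0.69, adjusted p = 1), and the Siglecf gap with normexp fitted on all spots (-1.088, adjusted p = 0.4). No explanation of these results was tested.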

How the results depend on the processing

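None of the 8 genes passed the threshold in lung, in liver or in the gap between them under any alternative run (0 of 183, 0 of 190 and 0 of 48 values), and the liver count over all probes stayed at 0. Leaving out 1 array at a time gave 64 to 81 lung probes past the threshold. The lung count was 12 with normexp fitted on all spots, 4 with median centring and 133 with the slide as a random block. The count for the gap between the tissues was 5 and 12 under normexp on all spots and median centring. With the mouse number as a replicate block that count was 49 and the tissue count 22404, and no call among the 8 genes changed. The causes of these moves were not tested.

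Signs turned as follows. In lung, normexp on all spots gave Icam1 -0.030, Vcam1 -0.067, Pecam1 -0.37, Itgax -0.37, Cd83 -0.24 and Foxj1 -0.32. The authors' table gave Selp 0.018 and Vcam1 -0.0061, and the slides with both groups, an alternative chosen after seeing the data, gave Vcam1 -0.0023 with arrays pooled over slides, though the exposed lungs were higher within each of the 3. In liver, Sele and Itgam gave -0.012 and -0.023 without background correction and -0.013 and -0.016 in the authors' table. Normexp on all spots gave Sele -0.010 and Icam1 0.047, and processed signals gave Sele -0.039, Selp -0.042 and Itgam -0.41. Median centring gave Icam1 0.067, Vcam1 0.016, Itgam -0.011 and Itgb2 0.020, and the mean of a gene's probes gave Selp -0.028, Pecam1 -0.035 and Itgam -0.045. For the gap, normexp on all spots gave Icam1 -0.077, Pecam1 -0.41, Itgax -0.27, Marco -0.37, Cd83 -0.46 and Foxj1 -0.28. Itgam was 0.00063 without background correction, Selp 0.0040 in the authors' table, and Sele 0.011 with the replicate block.

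Without single arrays, lung values ran from -0.026 to 0.020 for Sele, -0.059 to 0.062 for Vcam1 and -0.058 to 0.012 for Itgam. Liver values ran from -0.016 to 0.015 for Sele, -0.0070 to 0.031 for Selp, -0.0059 to 0.045 for Pecam1 and -0.036 to 0.033 for Itgam. Dim probes limit Sele throughout and Itgam in liver, and a dim reference dye limits Itgam in lung.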
